A study of Mus musculus with 12 samples.

Results

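A list of 8 large genes that lie at common fragile sites was followed along their length in liver tumors by array-based comparative genomic hybridization (aCGH). Probes were taken by gene name, and the arrays held 7 of the 8 genes, Fhit, Wwox, Lrp1b, Ctnna3, Immp2l, Dlg2 and Csmd1, with 19 placed probes of 42235 in all. No probe carried the name of Nbea, which codes for neurobeachin, a scaffold protein of vesicle traffic, and it is not analysed here. The members are 7 of 20466 gene names on the arrays.

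All mice were Mdr2-KO/FVB. They lack in every cell the canalicular phospholipid transporter Mdr2 (Abcb4), and their livers are chronically inflamed and form hepatocellular tumors. In the post-PHx group (4 male and 2 female tumors, PHx1M to PHx6F), 70% partial hepatectomy was performed at the age of 3 or 6 months and tumors were taken at 9 months. In the spontaneous group (2 male and 4 female tumors, Spon1M to Spon6F), mice had no operation and tumors were taken at 13 months from females and 14 months from males. Each tumor was compared on 1 array with non-tumor liver taken at a distance in the same animal, itself Mdr2-KO tissue and, in the post-PHx group, liver that had regrown. Values are log2 ratios of tumor over non-tumor liver, so 0 means equal copy number and 1 a doubling. The arrays measured DNA, so markers of the tissue could not be checked.

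Common fragile sites are stretches of the genome that tend to break when DNA replication is slowed. Many of them hold very long genes with few replication origins, where forks from both sides have far to travel, and tumors often carry deletions inside such genes. Fhit hydrolyses dinucleoside polyphosphates, Wwox is an oxidoreductase with WW domains, and both are known as tumor suppressors. Lrp1b is an endocytic receptor of the low density lipoprotein receptor family, Ctnna3 an alpha-catenin, Immp2l a peptidase subunit of the inner mitochondrial membrane, Dlg2 a synaptic scaffold, and Csmd1 a large membrane protein with complement-like domains.

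Noise between neighbouring probes was 0.147 to 0.265 on the log2 scale over the 12 arrays. Signals were 7.07 to 26.0 times background in green and 3.80 to 11.9 times in red, taken as the median over probes of an array. Slides were not balanced: 1 slide held 4 post-PHx arrays, another 4 spontaneous arrays, and the last 2 of each. Post-PHx tumors had 0 to 13 called gains and no called loss. Spontaneous tumors had 0 to 37 gains and 0 to 135 losses, with 135 losses in Spon3F, 116 of them under 5 probes.

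Coverage of the long genes was sparse. Fhit, Wwox, Lrp1b and Dlg2 had 2 probes each, Csmd1 had 3, and Ctnna3 and Immp2l had 4. Between neighbouring probes of a member the gap was 159 kb at the median and 1315 kb at the most, against a median of 21.5 kb between neighbouring probes on the autosomes. Of the 12 gaps within members, 5 were over 200 kb, compared with 4.39% of all autosomal gaps. The widest gaps were 1315 kb in Csmd1, 720.5 kb in Lrp1b, 650.2 kb in Dlg2 and 490.4 kb in Fhit. A deletion within such a gap would not be seen on these arrays. Of 228 member spots, averaged by probe and array, 222 gave a value, and 221 of those were well above background in both channels.

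In genome build mm8, the probes of Fhit spanned chr14:9054744-9545211 and those of Wwox chr8:117697970-117855442. The probes of Lrp1b spanned chr2:40695576-41416240, those of Ctnna3 chr10:63322628-63577809 and those of Immp2l chr12:41698473-41987182. The probes of Dlg2 spanned chr7:91097267-91747600 and those of Csmd1 chr8:15892521-17224456. The files gave no exon or intron for a probe.

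The mean ratio of a member's probes stayed within 0.4 of 0 in 80 of 84 gene and tumor pairs. The median over the pairs was -0.05. The 4 exceptions were Immp2l in Spon1M at 3.00, Csmd1 in PHx3M at 0.57, Fhit in Spon5F at -0.65 and Lrp1b in PHx1M at -0.42. The Lrp1b value rested on a single probe, since the other spot was left out as an outlier. Wwox, Ctnna3 and Dlg2 stayed within 0.4 of 0 in each of the 12 tumors.

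**Figure D1:**
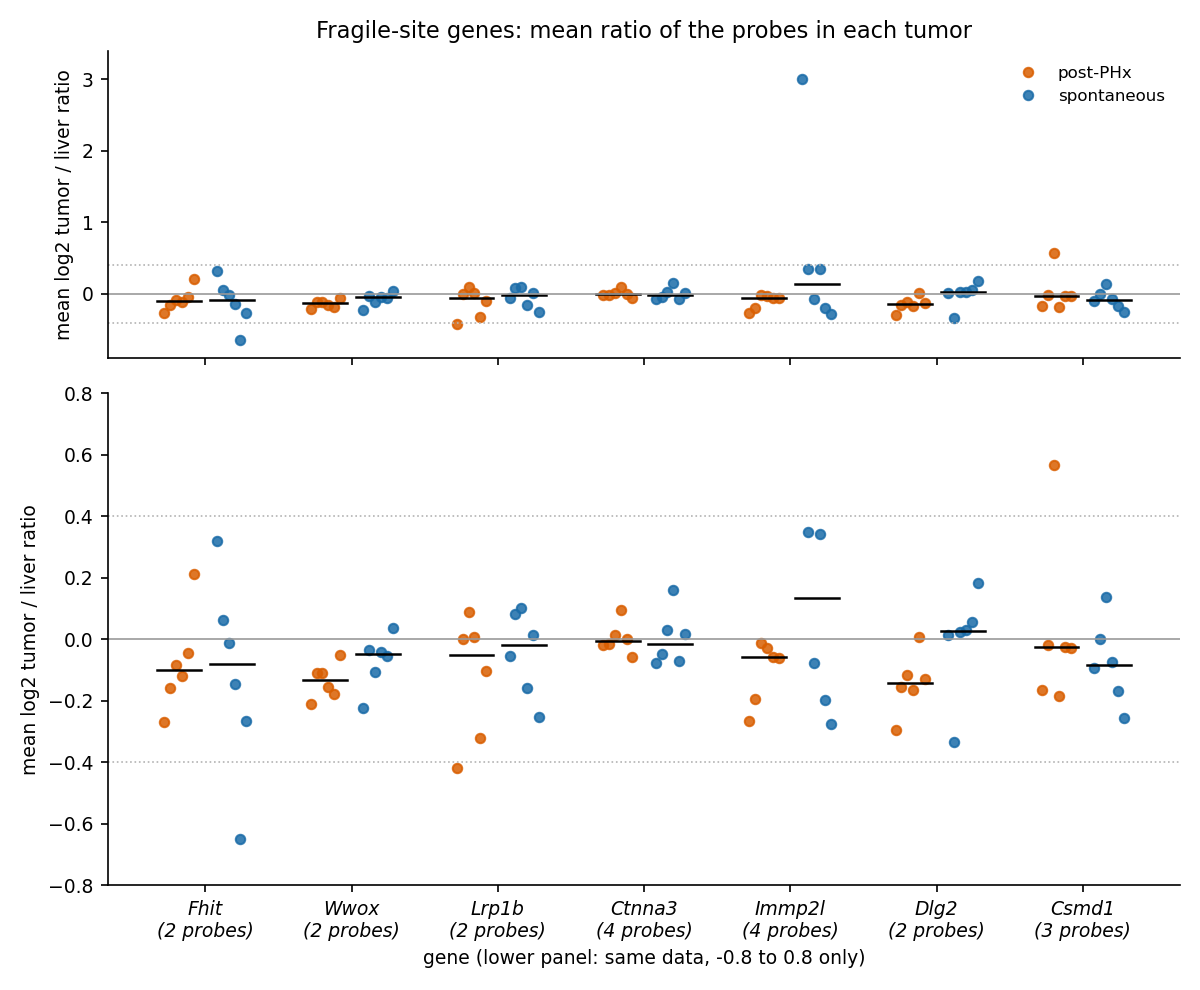
Mean log2 tumor over non-tumor liver ratio (vertical axis) of each fragile-site gene (horizontal axis, with its number of probes) in the 6 post-PHx and 6 spontaneous tumors; points are tumors, black bars group medians, and dotted lines mark -0.4 and 0.4. Immp2l in Spon1M stands alone at 3.00, and the lower panel shows the same data between -0.8 and 0.8.

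Regions were called on each array in the manner of ADM-2, which weights probes by their error, with at least 2 probes and an absolute mean of at least 0.4, and a gene was counted when a region held at least 2 of its probes. Among the post-PHx tumors 1 of 7 members was gained, Csmd1 in PHx3M, against 9.92% of the 11157 genes with at least 2 probes. None of the 7 was lost in a post-PHx tumor, and the share over all genes was 0%. Among the spontaneous tumors 2 members were gained, Immp2l and Fhit, both in Spon1M, against 8.38% of all genes. Fhit was also lost in Spon5F, the 1 member lost in that group, against 7.71% of all genes. With so few members, these shares were not tested against the background.

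**Figure D2:**
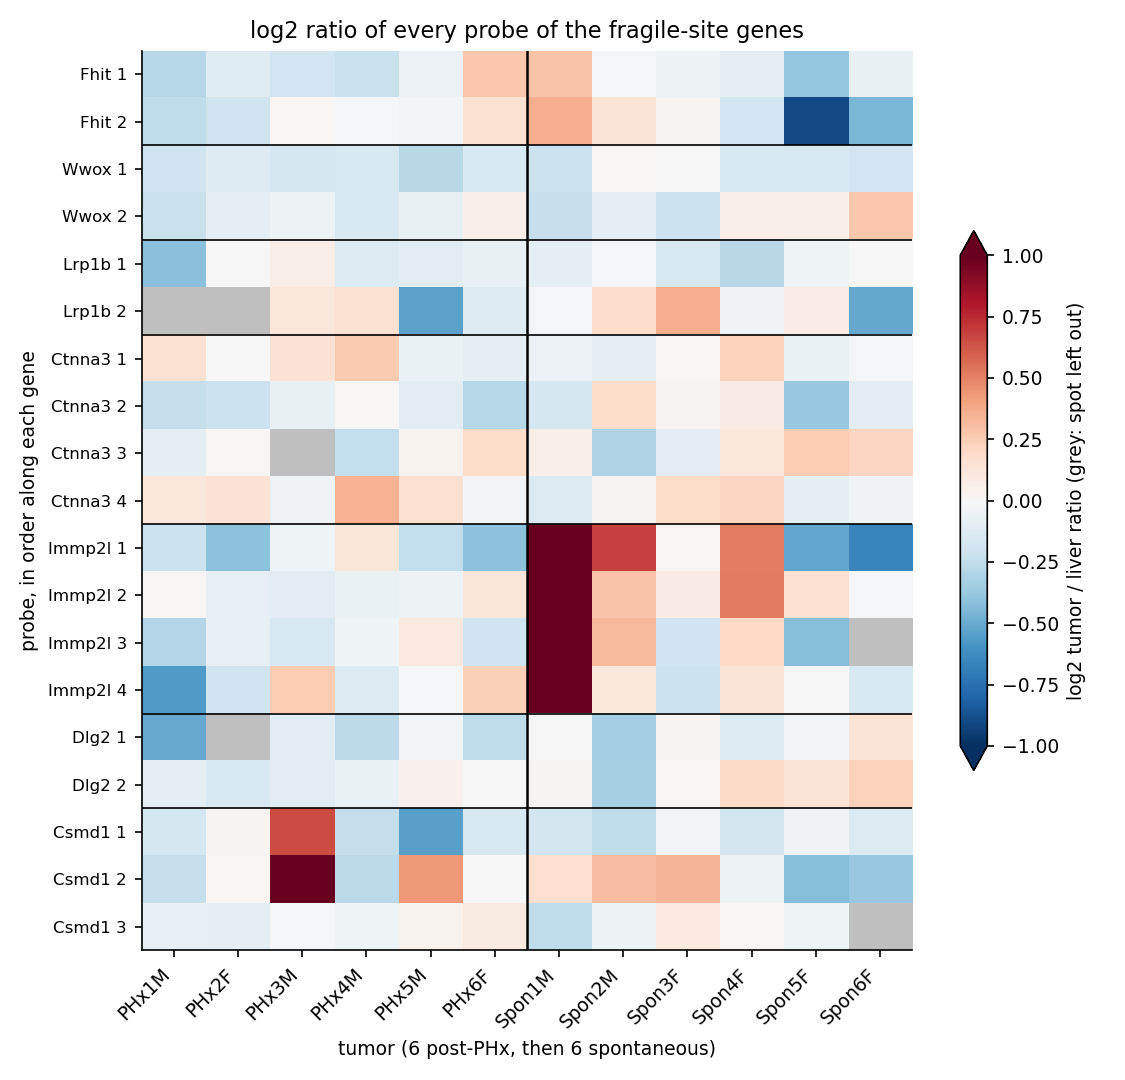
Log2 ratio of each of the 19 probes of the fragile-site genes (rows, in order along each gene) in the 12 tumors (columns, 6 post-PHx to the left of the line and 6 spontaneous to the right); red is gain, blue loss, grey a spot left out, and colors are full at -1 and 1. The Immp2l probes are red in Spon1M at 2.91 to 3.20, and in PHx3M the first and second Csmd1 probes are red while the third is near 0.

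A called gain ended inside Csmd1 in PHx3M, though not under another background correction given below. The Csmd1 probes read 0.65 at chr8:15892521-15892580, 1.05 at chr8:15909083-15909142 and -0.01 at chr8:17224397-17224456. In the other 11 tumors the first probe ranged from -0.54 to 0.03, so PHx3M stood above all of them at this probe. The second probe was more variable, with 0.43 in PHx5M and -0.43 in Spon5F.

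The called gain of PHx3M ran over chr8:3151837-15909142, 12.8 Mb and 224 probes, with a mean of 0.84 ± 0.27 (SD over probes). It was not even: the 78 probes nearest the centromere averaged 2.15-fold, and the 144 probes that reach into Csmd1 averaged 0.69 ± 0.17 (1.62-fold). Beyond the gain, from the third Csmd1 probe to the end of the chromosome, 1892 probes averaged 0.03 ± 0.17. The end of the gain thus fell in the 1315 kb between the second and the third Csmd1 probes, where the arrays held no other probe. A second edge was called between the first and second probes, around a piece of a single probe.

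Taken over 10 probes of any name on each side, the level fell by 0.71 at this gap in PHx3M, from 0.77 ± 0.13 to 0.06 ± 0.13, a z of -10.1 against its error. In the other 11 tumors the step at the same place ranged from -0.23 to 0.06, with a median of -0.04. An edge inside the gene was called for 0.161% of genes in at least 1 post-PHx tumor, and a step of this kind for 0.143%, and Csmd1 was the 1 member with either. In the spontaneous tumors no member had one, against 1.34% of genes for edges and 1.48% for steps. These shares are over genes with at least 2 probes and were not matched for span, which was 1332 kb for the Csmd1 probes.

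The gap with the called step depended on the second probe, which is dim. In PHx3M its signal was 3.35 times background in green and 2.94 in red. After normexp background correction its ratio was -0.15, while the first probe stayed at 0.42 and the third was -0.10. The step was then called between the first and second probes, at -0.84. No gain of Csmd1 was called in that setting, and no edge of a called region fell inside the gene. In both settings the called step lay between the first and the third Csmd1 probes. A called region ended inside the gene without the correction and not with it.

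Gains from the start of chromosome 8 were also called in PHx2F and PHx4M, and both ended before Csmd1. In PHx2F the gain reached chr8:8495028, 7.40 Mb before the gene, with a mean of 0.42, and the Csmd1 probes read 0.03, 0.02 and -0.10. In PHx4M it reached chr8:5093321, 10.8 Mb before the gene, with a mean of 0.71. A lower level of 0.21 ± 0.20 over 147 probes, below the filter of 0.4, followed in PHx4M and ended 0.78 Mb before the first Csmd1 probe. The Csmd1 probes of PHx4M read -0.24, -0.27 and -0.05.

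**Figure D3:**
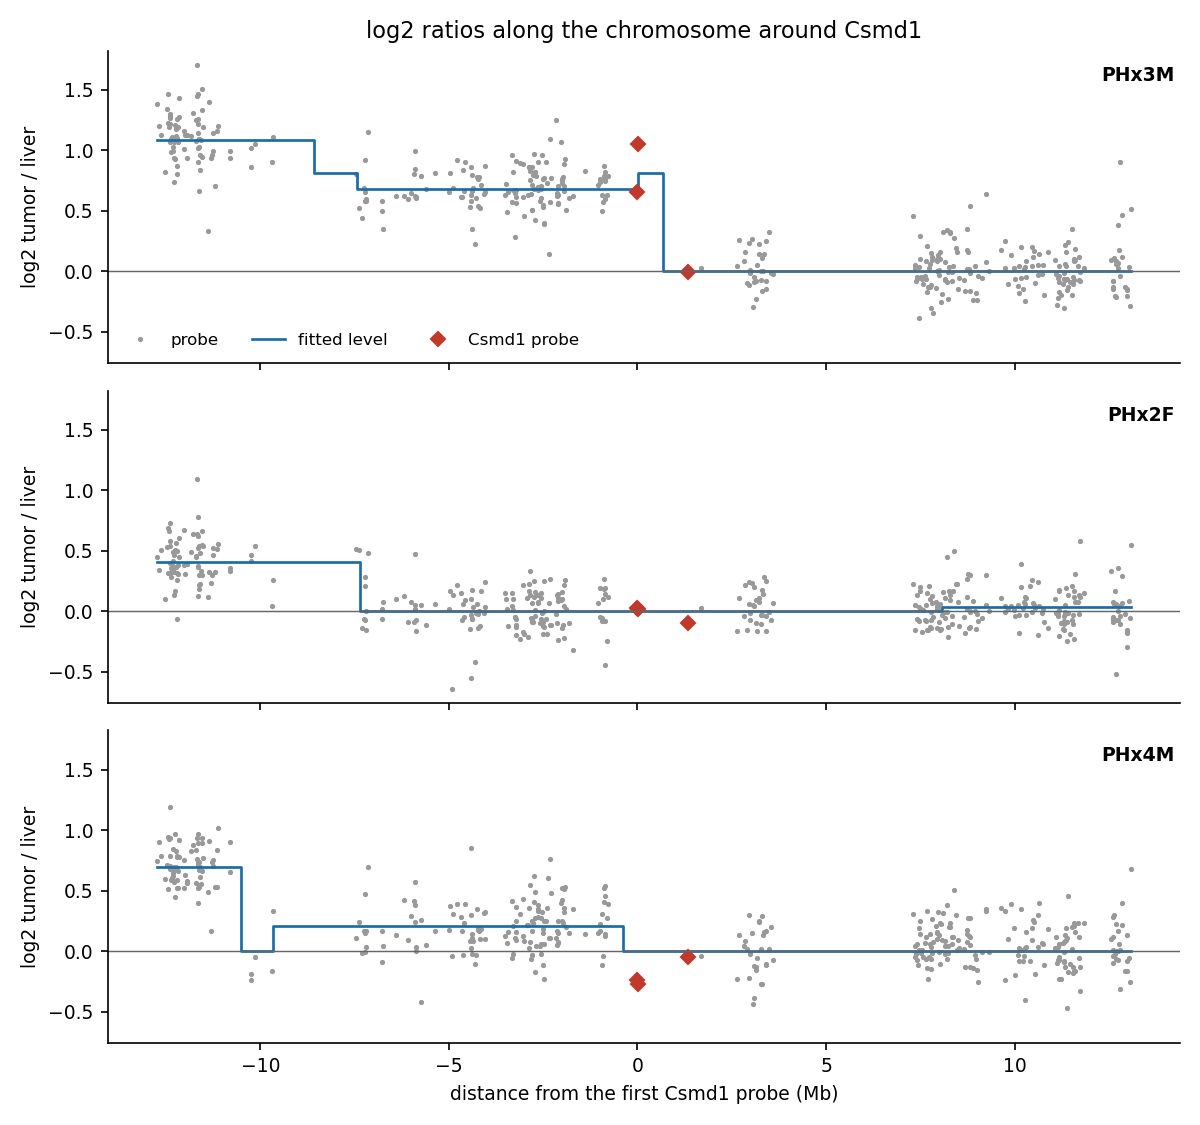
Log2 tumor over non-tumor liver ratio (vertical axis) against the distance from the first Csmd1 probe in Mb (horizontal axis) in PHx3M, PHx2F and PHx4M; grey points are probes, blue lines fitted levels, and red diamonds Csmd1 probes. The gain of PHx3M drops to 0 within Csmd1, and the gains of PHx2F and PHx4M end 7.40 and 10.8 Mb before it.

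Immp2l was amplified as a whole in Spon1M. Its probes read 2.92, 3.20, 2.96 and 2.91, a mean of 3.00 ± 0.13 (SD over 4 probes), or 7.99-fold. They lay within a focal amplicon of 28 probes at chr12:40515930-42836201, with a mean of 3.00 ± 0.32 (8.01-fold), which held 11 gene names, among them Dock4, a guanine nucleotide exchange factor, and Scin, an actin-severing protein. On both sides the level was lower and nearly equal, 0.75 ± 0.17 over 54 probes before and 0.73 ± 0.15 over 38 probes after. The ratio returned to -0.03 ± 0.16 past chr12:51158663. No edge was called between the Immp2l probes. The last amplified probe lay 1.14 Mb after the first Immp2l probe, and the next probes, at the lower level, began 2.98 Mb after it.

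In Spon2M and Spon4F Immp2l was near the level of its chromosome. In Spon2M the mean of its probes was 0.35 ± 0.24 and the median of chromosome 12 was 0.27, and in Spon4F they were 0.34 ± 0.20 and 0.36. Immp2l was at -0.08 in Spon3F, -0.20 in Spon5F and -0.28 in Spon6F, where its flanking probes averaged 0.01, -0.05 and -0.01. In the post-PHx tumors it ranged from -0.27 in PHx1M to -0.01 in PHx3M, with a median of -0.06. The groups overlapped, although 3 of 6 spontaneous tumors and none of 6 post-PHx tumors were above 0.

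The difference of Immp2l between groups, post-PHx minus spontaneous, was -0.63 (SE 0.44, limma adjusted p = 0.95). Without Spon1M it was -0.13 (SE 0.12, adjusted p = 0.99). Only PHx5M, PHx6F, Spon5F and Spon6F share a slide between groups, and within it the post-PHx mean was higher, at -0.06 against -0.24, so the direction turned. Slide and group could not be told apart for the other 8 arrays.

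**Figure D4:**
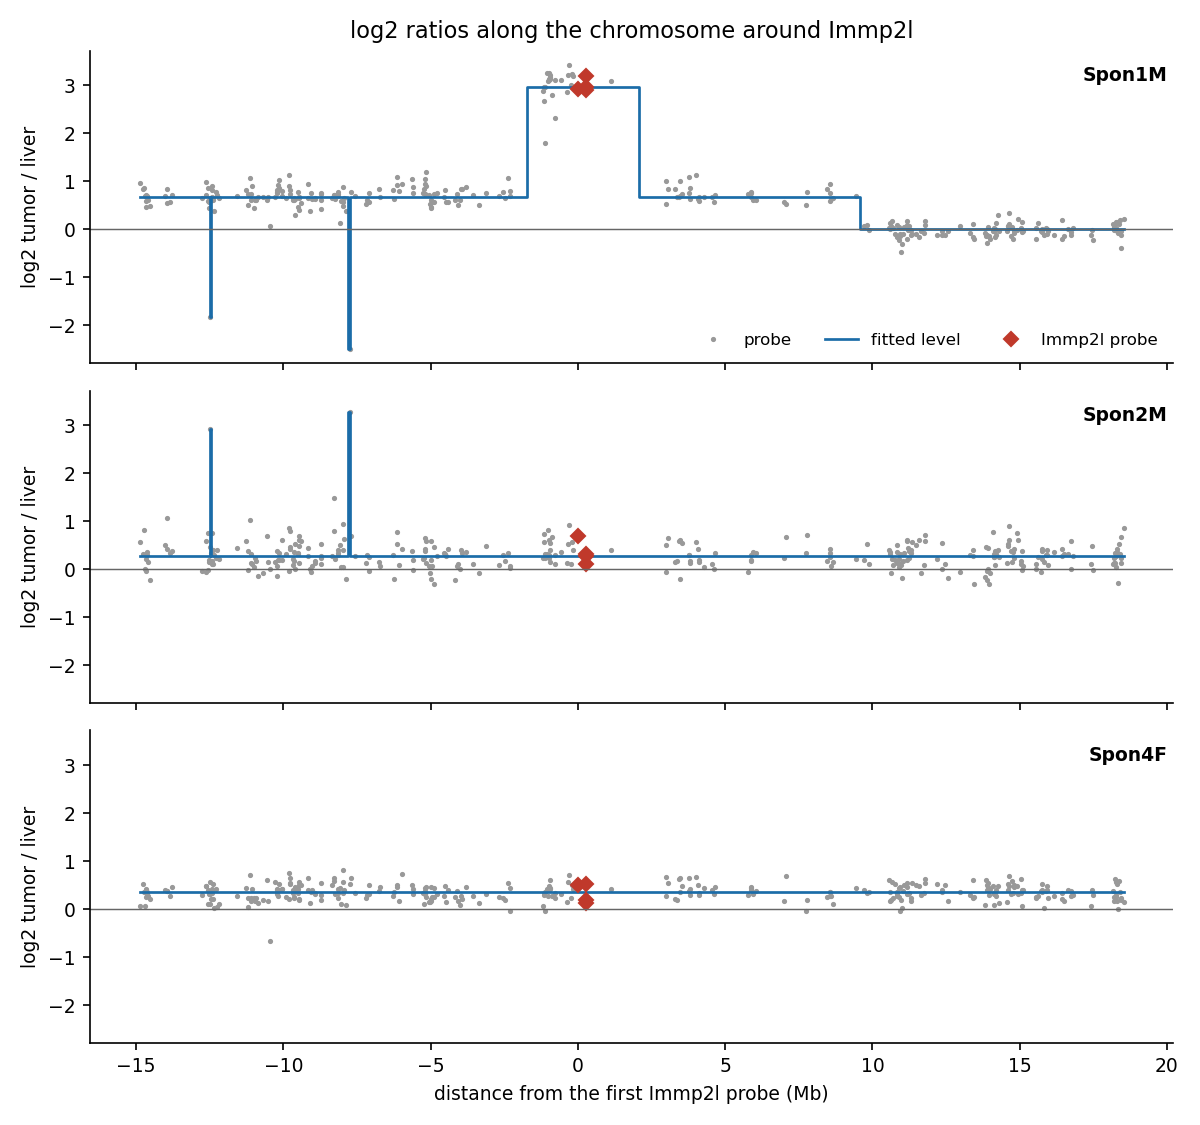
Log2 tumor over non-tumor liver ratio (vertical axis) against the distance from the first Immp2l probe in Mb (horizontal axis) in Spon1M, Spon2M and Spon4F; grey points are probes, blue lines fitted levels, and red diamonds Immp2l probes. In Spon1M the 4 Immp2l probes sit on an amplicon at 3.00, and in Spon2M and Spon4F they lie around a level of 0.28 and 0.36 that runs along the chromosome.

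Over the 12 tumors, 2504 other genes with at least 3 probes were compared with Immp2l, the member with the widest range (3.27). The 3 with the highest Pearson correlation were Scin on chromosome 12 (r = 0.99), which lies in the same amplicon, AK168746 on chromosome 9 (r = 0.98) and AK043790 on chromosome 15 (r = 0.98). All of them were high in Spon1M, and without this tumor r over 11 tumors was 0.78, 0.69 and 0.28. The correlations describe these tumors, which share the same arrays and probe noise.

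Fhit lay within called regions of chromosome 14 in Spon5F and Spon1M. In Spon5F its probes read -0.40 and -0.90, and they lay in a loss of chr14:6663640-123875911, 117 Mb and 1540 probes, with a mean of -0.49 ± 0.24 (0.71-fold). The chromosome median was -0.47 and the 40 probes around the gene averaged -0.51, so the loss took in the chromosome and not Fhit alone. In Spon1M the Fhit probes read 0.28 and 0.36, within a called gain of chr14:6628547-20772616 that averaged 0.47 ± 0.24. The call broke off at 1 probe of -2.48. The 208 probes beyond that probe, up to chr14:31475809, averaged 0.51 ± 0.18. A peak of 1.48 ± 0.13 over 5 probes began 4.72 Mb from the first Fhit probe, at Lrrc3b, and Fhit itself was outside it.

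In the post-PHx tumors Fhit ranged from -0.27 in PHx1M to 0.21 in PHx6F, with a median of -0.10. PHx6F had a level of 0.28 ± 0.16 over 120 probes that included Fhit and was under the filter of 0.4. In PHx1M, PHx2F and PHx4M a gain called on chromosome 14 lay 5.49, 3.03 and 5.49 Mb from Fhit. The 6 spontaneous values, with a median of -0.08, overlapped those of the post-PHx tumors. The difference between groups was 0.04 (SE 0.14, adjusted p = 0.99).

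**Figure D5:**
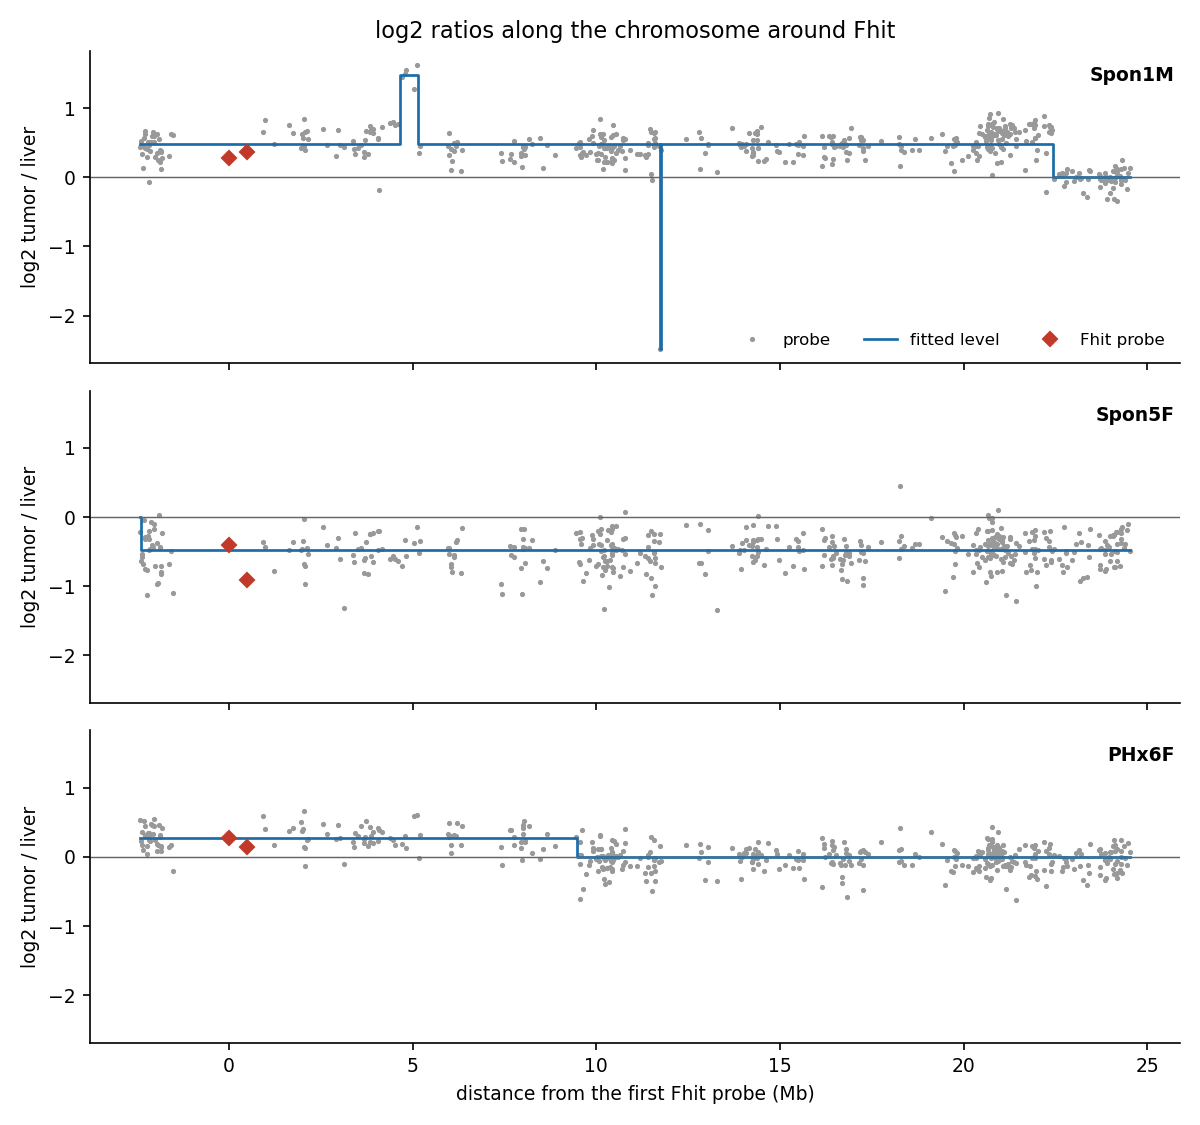
Log2 tumor over non-tumor liver ratio (vertical axis) against the distance from the first Fhit probe in Mb (horizontal axis) in Spon1M, Spon5F and PHx6F; grey points are probes, blue lines fitted levels, and red diamonds Fhit probes. The Fhit probes lie within levels of 0.48, -0.47 and 0.28 that extend far beyond the gene.

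The remaining members had no called region in any of the 12 tumors. Wwox ranged from -0.21 to -0.05 in the post-PHx tumors (median -0.13) and from -0.22 to 0.04 in the spontaneous tumors (median -0.05). The ratio of Wwox was below 0 in 11 of 12 tumors.

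Lrp1b ranged from -0.42 to 0.09 in the post-PHx tumors (median -0.05) and from -0.25 to 0.10 in the spontaneous tumors (median -0.02). In both PHx1M and PHx2F a single Lrp1b probe was left, and in PHx2F a single Dlg2 probe. Dlg2 ranged from -0.29 to 0.01 (median -0.14) and from -0.34 to 0.18 (median 0.03). In Spon2M both Dlg2 probes were low, at -0.34 and -0.33, where the median of chromosome 7 was -0.06. Ctnna3 was the least variable member, from -0.06 to 0.09 (median -0.01) and from -0.08 to 0.16 (median -0.02). For each of these genes the groups overlapped.

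Splits inside the genes were also looked for with the members' own probes. A scan with 3 probes on each side, which needs at least 6 probes of a gene, covered none of the 7 members. It called 0.741% of the 135 genes it covered in post-PHx and 9.63% in spontaneous tumors. With 1 probe on each side in place of 3, no member passed 5 times its error in either group, against 1.23% of genes in post-PHx and 5.85% in spontaneous tumors. In Fhit, Wwox, Lrp1b and Dlg2, with 2 probes each, this compares single probes. The log2 change from a loss of 1 of 2 copies is below 5 times that error, so the measure could not decide on such losses there. The largest splits were those of Csmd1, with a z of -4.51 in PHx3M and of 4.08 in PHx5M. In PHx5M the first and second Csmd1 probes read -0.54 and 0.43, only 16.5 kb apart, and no region was called there. No deletion inside a member was called in any of the 12 tumors.

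Group means were compared with limma over all genes, in a fit of genes with at least 3 probes for Ctnna3, Immp2l and Csmd1, and of genes with at least 1 probe for the others. Post-PHx minus spontaneous, 0 of 7 members passed an adjusted p of 0.05. In both fits 0% of genes passed in either direction. The largest difference after Immp2l was that of Dlg2, -0.14 (SE 0.08, adjusted p = 0.99). Within the slide that held both groups the differences ranged from -0.18 for Dlg2 to 0.54 for Fhit, with 2 tumors a group and no test.

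Against 0, no member passed in either group. Wwox came nearest, at -0.14 (SE 0.04, adjusted p = 0.086) in the post-PHx tumors. Of all genes with at least 1 probe, 1.6% passed above and 1.19% below 0 in the post-PHx tumors, and 2.17% above and 2.16% below in the spontaneous tumors. Of genes with at least 3 probes, 0% passed in the post-PHx tumors, and 0.24% above and 0.359% below in the spontaneous tumors. The median of the member means was -0.10 and -0.04 in the 2 groups, against 0.01 and -0.01 over all 19618 genes.

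A whole-chromosome shift can lift or lower a gene, so each gene was also set against its flanks, the 20 nearest other probes on each side of the same array. Wwox and Fhit were below their flanks in 12 of 12 tumors each, and the other members in 6 to 9 of 12. No share over all genes is given for this count, so it has no background. Wwox minus its flanks was -0.22 to -0.12 in the post-PHx tumors (median -0.14), with a mean of -0.15 (SE 0.03, adjusted p = 0.017). Wwox has 2 probes, and only the first of them passed on its own, as given below. In the spontaneous tumors it was -0.26 to -0.004 (median -0.11), with a mean of -0.12 (SE 0.03, adjusted p = 0.056), which did not pass. Fhit minus its flanks was -0.24 to -0.04 in the post-PHx tumors (median -0.09) and -0.20 to -0.02 in the spontaneous tumors (median -0.14). Its means were -0.13 (SE 0.04, adjusted p = 0.049) and -0.13 (SE 0.04, adjusted p = 0.045).

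So 2 of 7 members were below their flanks past the threshold in the post-PHx tumors and 1 of 7 in the spontaneous tumors, against 3.57% and 2.84% of all genes with at least 1 probe. Above their flanks were 4.35% and 5.04% of these genes and none of the 7 members. Among genes with at least 3 probes, 2.82% passed above and 1.73% below in the post-PHx tumors and 3.3% and 1.45% in the spontaneous tumors, and none of the 3 members of that fit did. Every tumor was labelled with Cy5 and every liver with Cy3, with no dye swap, so a constant dye effect of the few probes and a difference in copy number cannot be told apart. With slide as a block neither gene passed in the post-PHx tumors, with adjusted p of 0.11 for Wwox and 0.44 for Fhit, and without PHx1M neither passed (0.058 and 0.14). Fhit did not pass in the post-PHx tumors without any 1 of the 6 (adjusted p of 0.052 to 0.15). In the spontaneous tumors Fhit did not pass without Spon1M, Spon2M, Spon4F, Spon5F or Spon6F, and Wwox passed without Spon2M (adjusted p = 0.030). Between the groups the difference was -0.04 (SE 0.05) for Wwox and 0.003 (SE 0.05) for Fhit, both at an adjusted p of 1.

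On single probes, 1 of 19 passed over the 12 tumors, below 0, against 9.22% of all probes. This was the first Wwox probe, which averaged -0.15 (SE 0.03, adjusted p = 0.0065), with -0.28 to -0.13 in the post-PHx tumors (median -0.17) and -0.22 to 0.02 in the spontaneous tumors (median -0.16). No member probe passed above 0, against 9.83% of all probes. In the post-PHx tumors alone the same Wwox probe was the 1 of 19 that passed, below 0, against 2.09% of probes below and 2.49% above 0. In the spontaneous tumors none of the 19 did, against 2.91% and 2.86%. The second Wwox probe averaged -0.06 over the 12 tumors (SE 0.04, limma adjusted p = 0.40). It ranged from -0.22 to 0.05 in the post-PHx tumors and from -0.23 to 0.27 in the spontaneous tumors.

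A further 17 large genes at common fragile sites were looked at for called regions, edges, steps and gene means, of which 13 had a probe and 11 at least 2. None of the 11 was gained, lost or cut by an edge or a step in any tumor, against 15.4%, 7.71%, 1.49% and 1.61% of all genes over the 12 tumors. As gene means, none of the 13 passed against 0 in either group, which also held for the 7 members. Gene minus flanks is given for them as a direction only. Its group mean was below 0 for 11 of 13 in the post-PHx tumors and 9 of 13 in the spontaneous tumors. For the members it was 7 of 7 and 5 of 7, and for all genes 49.4% and 48.1%. Dmd, on the X chromosome, averaged -0.10 and -0.06.

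Of 14 genes that keep replication forks stable, 11 had a probe. Brca1, which acts in homologous recombination and fork protection, passed in the spontaneous tumors at -0.17 (SE 0.04, adjusted p = 0.048) and averaged -0.10 (SE 0.04, adjusted p = 0.23) in the post-PHx tumors. This was 1 of 11, against 2.16% of all genes that passed below 0 in the spontaneous tumors. With slide as a block 4 of 19618 genes passed there in either direction, against 850 without it. No other gene of this list passed, and none of the 9 with at least 2 probes was gained, lost or cut. No gene of either list passed between the groups.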

How the data were processed

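Genomic DNA of 12 tumors and matched livers was hybridized by the authors to Agilent 4x44K mouse arrays. The deposited log10 ratios of red over green, their errors and the signal intensities were written by Feature Extraction 10.5.1.1 after background subtraction, detrending and linear dye scaling, on build mm8. Ratios were turned to log2, spots marked as outliers were dropped, replicate spots were averaged by probe, and arrays were centred on the autosomal median. Regions were called with error weights, a score of 6, 2 probes and a filter of 0.4, taken from the study's methods where stated. Gene means, gene minus flanks and probes were fitted with limma 3.58.1 in R 4.3.3 with Benjamini-Hochberg adjustment over all features. Other steps used Python 3.11.15, numpy 2.4.6, pandas 2.3.3 and numba 0.67.0. The callers and limma were tested on simulated data. Members and lists were chosen with earlier results of these data known. Planned limits of at least 3 probes for limma and 6 for the split scan left members out, so Fhit, Wwox, Lrp1b and Dlg2 came from the fit with at least 1 probe, and 2 split measures were added after seeing the data. Named besides the members are genes of the lists past the threshold as gene means and the 3 genes most correlated with Immp2l. Member probes past the threshold over 12 tumors are named too, and Dock4, Lrrc3b, Dmd and Polh were added. Each group has 6 tumors, so p-values measure the spread between tumors. Precision is limited by the number of arrays and by probe noise. A listed fragile-site gene and a gene of the further list are not reported here, and the counts leave them out. Probe sequences were not used here.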

Additional observations from a re-analysis of the deposited data

Results flagged for a closer look

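Of 28 sets of 6 values, over members, groups and both measures, 5 held a tumor far from the rest by Dixon's criterion, and chance gives about 1 in 20. Immp2l in Spon1M was at 3.00, while the other spontaneous tumors lay between -0.28 and 0.35. Immp2l minus its flanks in Spon1M was 1.04, against -0.27 to 0.01. Csmd1 in PHx3M was at 0.57, while the other post-PHx tumors lay between -0.18 and -0.02. Dlg2 in Spon2M was at -0.34, against 0.01 to 0.18. Ctnna3 minus its flanks in PHx2F was -0.0486, against -0.001 to 0.01, which is under the noise of any array.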

How the results depend on the processing

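After normexp background correction, 1 member with at least 3 probes, Csmd1, passed below 0 in each group, as gene means and as gene minus flanks, and Csmd1 in the post-PHx tumors turned from 0.02 to -0.16. Among all genes with at least 3 probes, it called 343 and 459 of 2505 as gene means in the post-PHx and spontaneous tumors. As gene minus flanks it called 761 and 722 of 2484, against 113 and 118 in the main fit. In the fit with at least 1 probe, 2 members passed as gene means in each group and 3 as gene minus flanks in the spontaneous tumors. In that fit the correction called 4791 and 5239 of 19618 genes as gene means, against 547 and 850. As gene minus flanks in the spontaneous tumors it called 6880 of 19418, against 1529. No gain of Csmd1 was called with the correction (0 members gained or with an edge in post-PHx tumors). Array weights gave 2 members in the post-PHx gene means, Wwox and Dlg2, and called 2792 of 19618 genes there, against 547. For gene minus flanks in the post-PHx tumors (2 members), the median of probes, sex as a covariate and 40 flank probes each gave 1 and slide as a block 0, and leaving out each tumor gave 0 to 2. In the spontaneous tumors (1 member), slide, sex and 40 flank probes gave 0, and leaving out each tumor 0 to 1. Fhit failed in 15 of 24 alternatives in the post-PHx tumors and 12 of 24 in the spontaneous tumors, Wwox in 3 of 24 in the post-PHx tumors, and each kept its sign in all 24. Since both groups share 1 estimate of the spread, Fhit also failed in the post-PHx tumors without Spon1M, Spon4F, Spon5F or Spon6F, and in the spontaneous tumors without PHx3M, PHx4M or PHx6F.

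The tumor number is shared between groups but not the mouse, and the correlations of same-numbered tumors ran from -0.10 to 0.52. With a replicate block on this number, 1 member passed in the post-PHx tumors and 0 in the spontaneous tumors as gene minus flanks, and 0 as gene means. Over all genes with at least 1 probe the block moved the calls in the post-PHx and spontaneous tumors from 547 to 0 and from 850 to 2 as gene means, and from 1537 to 947 and from 1529 to 901 as gene minus flanks.

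A filter of 0.25 gave 2 gained members in the post-PHx tumors, with Fhit in PHx6F added. A filter of 0.6 gave 1 gained and 0 lost members in the spontaneous tumors, Immp2l in Spon1M. The count of gained members, of edges and of steps in the post-PHx tumors was 0 without PHx3M and 1 otherwise. That of gained members in the spontaneous tumors was 0 without Spon1M and 2 otherwise, and that of lost members 0 without Spon5F and 1 otherwise. At 4 times the error, 1 member had a split of 1 probe on each side in the post-PHx tumors, Csmd1. No alternative gave a difference between groups for any member. With at least 10 probes per gene no member was tested. The causes were not tested.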
